A study of Mus musculus with 8 samples.

Results

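The 10 plasma cell and secretory antibody genes Igha, Jchain, Prdm1, Xbp1, Creb3l2, Sdc1, Tnfrsf17, Mzb1, Derl3 and Edem1 were followed in whole mouse spleen. Every probe set annotated to one of these symbols was taken, which gave 20 of the 45037 probe sets that were not array controls. No further probe set was annotated jointly to Igha and another gene. The spleens came from 8-week-old Nix-null mice (Nix-/-, arrays Nix_KO 10, 2, 3 and 6) and 8-week-old wild-type mice (arrays WT 3, 4, 5 and 6), with 1 spleen per array and no treatment. Nix is the mitochondrial protein encoded by Bnip3l. The labels name no cell type to which the loss is restricted, and no strain or sex. RNA was labelled with biotin and hybridised to Affymetrix mouse expression arrays, and all values below are log2 intensities.

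Plasma cells are the antibody-secreting end of the B lineage. As a B cell becomes a plasma cell, Prdm1 and Irf4 switch off the programme held by Pax5, Bach2 and Bcl6, and Xbp1 enlarges the endoplasmic reticulum (ER) so that it can fold and export antibody. The unfolded protein response is the signalling from the ER that matches folding and disposal capacity to the protein load. The spleen holds plasma cells in its red pulp and at the borders of its B cell follicles, together with many more B cells, T cells, macrophages and, in mice, red cell precursors.

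Of the 20 probe sets, 19 were bright enough to be tested, which required 4 or more of the 8 arrays to reach a log2 intensity of 5. A probe set was called when its limma p, adjusted by the Benjamini-Hochberg method over all 22347 tested probe sets, was under 0.05. In the whole spleen 30.0% of the tested probe sets were called, 12.5% higher and 17.6% lower in Nix-null spleens, and 41.6% of the called probe sets were higher. When each array was centred on its median the higher share of the called probe sets was 52.4%, and the median difference over all tested probe sets, -0.12, became 0.00. All 12 tested erythroid markers rose (median difference 2.06), while 18 of 19 B cell identity genes fell (median -1.35), 9 of 12 T cell markers fell (median -1.01) and 3 of 11 macrophage and monocyte markers fell (median -0.58). Of all 11027 tested genes 13.1% were called higher and 21.3% lower, with a median difference of -0.15, and the macrophage share was near that lower share. Single arrays weighed on these counts: 17.9% of all probe sets were called without WT 6 and 18.2% without WT 4. The T cell count was 5 without Nix_KO 2 or Nix_KO 3, 4 without WT 4 or WT 5 and 3 without WT 6, and the macrophage count was 7 without Nix_KO 6 and 1 without WT 4 or WT 6. The 3 probe sets of Bnip3l are also annotated to its pseudogene and differed by 0.43, -0.50 and 0.58 (limma adjusted p = 0.158, 0.164 and 0.117), so they do not check the genotype labels.

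Some spleens carried pancreatic signal. The mean over 15 tested pancreatic acinar markers was 12.63 in Nix_KO 3, against 5.2 to 6.0 in the other Nix-null arrays. Among wild-type arrays it reached 11.63 (WT 3) and 9.56 (WT 5), with 7.16 for WT 4 and 5.72 for WT 6. With all 8 arrays none of the 15 markers was called in limma, nor did any have an unadjusted p under 0.05. Without Nix_KO 3 alone 0 were called, and 8 had an unadjusted limma p under 0.05. Acinar cells are themselves rich in ER proteins. Nix_KO 3 was the lowest Nix-null array for 11 of the 20 probe sets of the plasma cell genes, and WT 3 was the lowest wild-type array for 14. Whether these low values go with the pancreatic signal was not tested. The part of the pancreatic signal in the differences below was examined only by leaving out Nix_KO 3, WT 3 and WT 5. These 3 had the strongest signal, and the choice was made after the values were seen. They are called the 3 arrays with pancreatic signal below. Without them 5 of the 15 markers had an unadjusted limma p under 0.05. WT 4, which was kept, stood at 7.16, so some signal may remain.

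Among the plasma cell genes the probe sets of the IgA heavy chain were higher in Nix-null spleens, and the called probe sets of the regulators and the ER machinery were lower. Of the 19 tested probe sets 7 were called (36.8%, against 30.0% of all tested probe sets), 3 higher and 4 lower, and 12 did not pass. The 3 higher ones all belonged to Igha, and the 4 lower ones to Prdm1, Xbp1, Creb3l2 and Edem1. The median difference over the 19 was -0.31, against -0.12 over all tested probe sets, and 15 of the 19 differences were negative. The groups did not overlap for 3 probe sets, each lower in Nix-null spleens. Of all tested probe sets 34.6% had groups that did not overlap, 15.0% with Nix-null above and 19.5% with Nix-null below wild type. Without the 3 arrays with pancreatic signal 0 of the 19 passed limma's adjusted threshold, 7 had an unadjusted p under 0.05, and 3.09% of all probe sets were called. Leaving out 1 array at a time gave 4 calls without WT 6 and 5 to 9 calls otherwise, with 3 higher each time, 1 lower without WT 6, and 2 lower without Nix_KO 3 or WT 4.

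**Figure D1:**
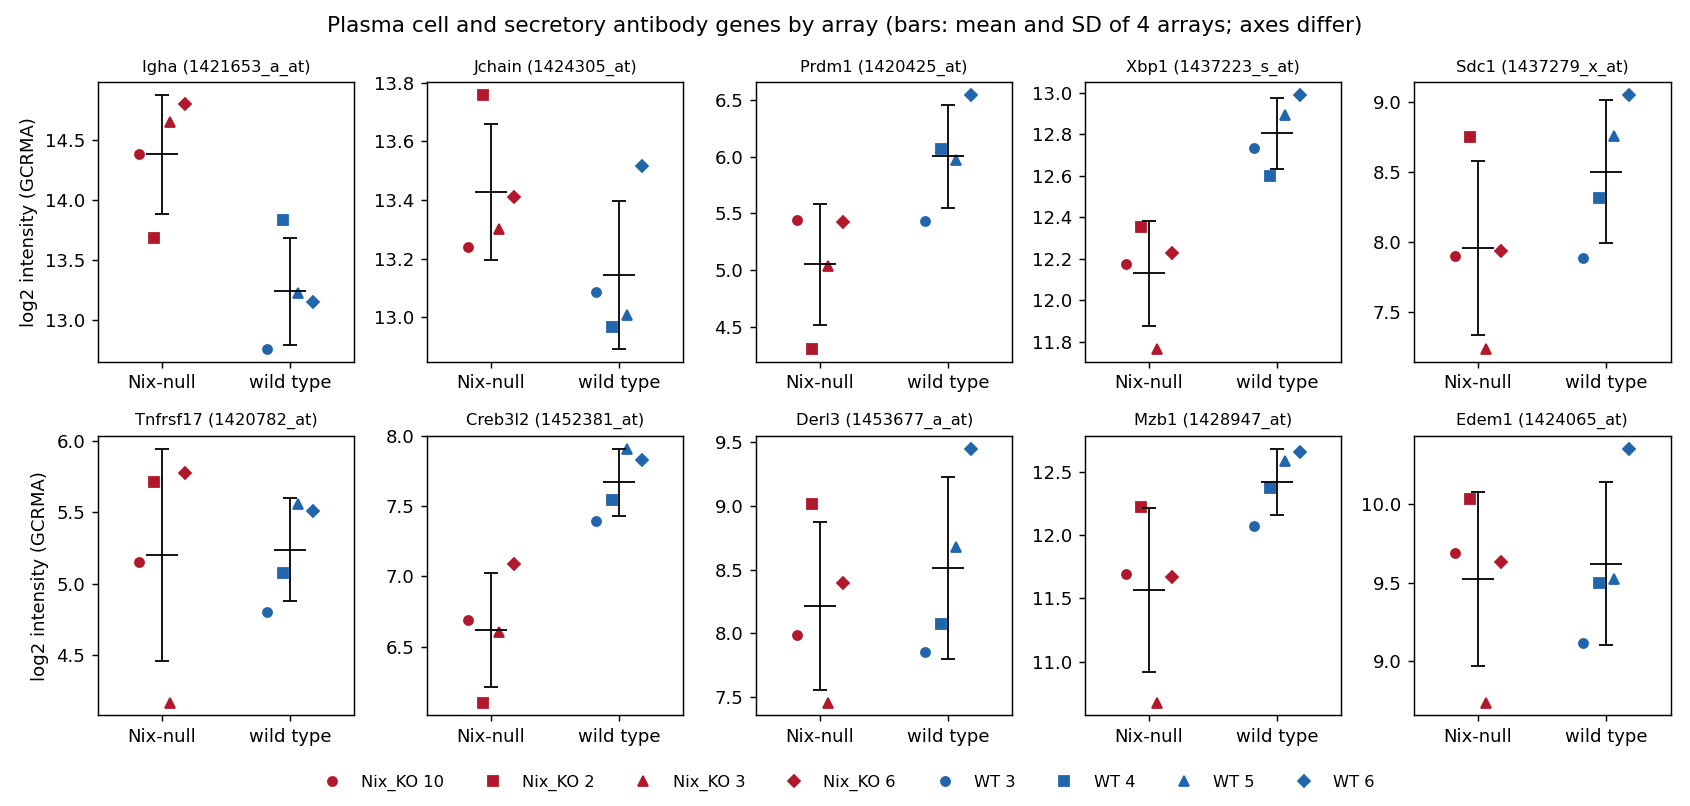
Log2 intensity of each plasma cell gene in every array, one panel per gene at its probe set with the highest mean; points are single spleens with a symbol per array, Nix-null (red) left of wild type (blue), and bars give the mean and SD of 4 arrays. The axes differ between panels. Igha runs from 13.69 to 14.80 in Nix-null and from 12.76 to 13.83 in wild-type arrays, and Xbp1 and Creb3l2 are the panels in which every Nix-null point lies below every wild-type point.

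Igha encodes the constant region of the alpha heavy chain, which makes an antibody an IgA. Its probe set 1421653_a_at measured 14.39, 13.69, 14.65 and 14.80 in Nix_KO 10, 2, 3 and 6, against 12.76, 13.83, 13.22 and 13.15 in WT 3, 4, 5 and 6. Nix_KO 10, 3 and 6 were above all wild-type arrays, and Nix_KO 2 was below WT 4. The means were 14.38 ± 0.49 in Nix-null and 13.24 ± 0.45 in wild-type spleens (SD, n = 4 each), a 2.21-fold higher intensity (difference 1.14, SE 0.29, limma adjusted p = 0.0172). In bulk spleen a change in the number of cells of a type and a change in RNA per cell cannot be told apart.

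The other probe sets of Igha gave the same picture. Probe set 1425763_x_at averaged 13.80 ± 0.54 in Nix-null and 12.50 ± 0.46 in wild-type spleens (SD, n = 4 each; 2.47-fold, SE of the log2 difference 0.31, limma adjusted p = 0.0128). Probe set 1429381_x_at averaged 13.44 ± 0.68 in Nix-null and 12.02 ± 0.52 in wild-type spleens (SD, n = 4 each; 2.66-fold, SE 0.36, limma adjusted p = 0.0172). In both, Nix_KO 2 was the lowest Nix-null array and WT 4 the highest wild-type array, as in the first probe set. The suffix _x marks sets in which some probes can match other transcripts, so these sets are not independent evidence. Without the 3 arrays with pancreatic signal the differences were 0.80, 0.99 and 1.01 (limma adjusted p = 0.225, 0.192 and 0.231).

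Jchain encodes the small joining chain that links IgA dimers and IgM pentamers for transport across epithelia. It measured 13.24, 13.76, 13.30 and 13.41 in Nix_KO 10, 2, 3 and 6, against 13.09, 12.97, 13.01 and 13.51 in WT 3, 4, 5 and 6. Apart from WT 6, the wild-type arrays lay below all Nix-null arrays. The difference of 0.28 did not pass (SE 0.18, 95% interval -0.12 to 0.69, limma adjusted p = 0.259). The difference of Igha exceeded that of Jchain by 0.86, which an exact two-sided permutation test over the arrays did not separate from 0 (p = 0.114, and 0.114 after adjustment over 2 such comparisons). With 4 against 4 arrays the smallest p is 0.0286, so neither comparison could pass after adjustment unless both reached it. This comparison and that with Ighm were chosen after the values were seen.

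Of 38 further tested immunoglobulin probe sets 0 were higher and 4 were lower in limma, against 12.5% higher and 17.6% lower of all tested probe sets, with 0 higher and 7 lower at an unadjusted p under 0.05, and 3 of the 38 differences were positive (median -0.70, against -0.12 over all tested probe sets, range -2.44 to 0.74). The lower ones were 3 of 4 lambda light chain probe sets and 1 of 11 heavy chain probe sets, and 0 of 23 kappa light chain probe sets passed (1 lower at an unadjusted p under 0.05). Iglv1, a lambda variable segment, averaged 10.61 ± 0.84 in Nix-null and 11.96 ± 0.21 in wild-type spleens at probe set 1430523_s_at (SD, n = 4 each; difference -1.35, SE 0.36, limma adjusted p = 0.0213). Ighg3, the gamma chain of IgG3, averaged 9.68 ± 0.86 in Nix-null and 10.92 ± 0.29 in wild-type spleens at probe set 1427503_at (SD, n = 4 each; difference -1.24, SE 0.38, limma adjusted p = 0.034). Its dimmer tested probe set 1447998_at averaged 6.62 ± 0.60 in Nix-null and 6.63 ± 0.58 in wild-type spleens (SD, n = 4 each; limma adjusted p = 0.988). Whether the changes of these Ighg3 probe sets differ was not tested.

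Ighm, the mu chain carried by naive B cells and secreted as IgM, averaged 14.19 ± 0.46 in Nix-null and 14.50 ± 0.10 in wild-type spleens at its brightest probe set, 1427351_s_at (SD, n = 4 each; difference -0.31, SE 0.22, limma adjusted p = 0.313). This was the smallest difference among the tested Ighm probe sets, which reached -2.44 at 1425385_a_at (SE 1.18, limma adjusted p = 0.145). At 1425247_a_at Nix_KO 10, 2, 3 and 6 measured 11.19, 11.45, 8.69 and 8.31, against 10.86 to 11.38 in wild-type arrays. At 1425385_a_at they measured 10.97, 11.50, 9.58 and 5.36, against 10.53 to 13.09. Nix_KO 3 and 6, but not 10 and 2, were also below all wild-type arrays at 1425324_x_at, 1427756_x_at, 1427869_at and 1427870_x_at. This split was absent at 1427351_s_at, where Nix_KO 6 measured 14.35, and it was not tested. At 1427329_a_at the groups did not overlap (difference -0.65, limma adjusted p = 0.103). The difference of Igha exceeded that of Ighm at 1427351_s_at by 1.45 (exact two-sided permutation p = 0.0571, 0.114 adjusted over the 2 comparisons). Vpreb3, a chaperone-like partner of immunoglobulin chains in B cells, fell by 1.41 (SE 0.28, limma adjusted p = 0.00699). Immunoglobulin genes are near-identical in their constant and variable parts, so probe sets for different segments can share signal.

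**Figure D2:**
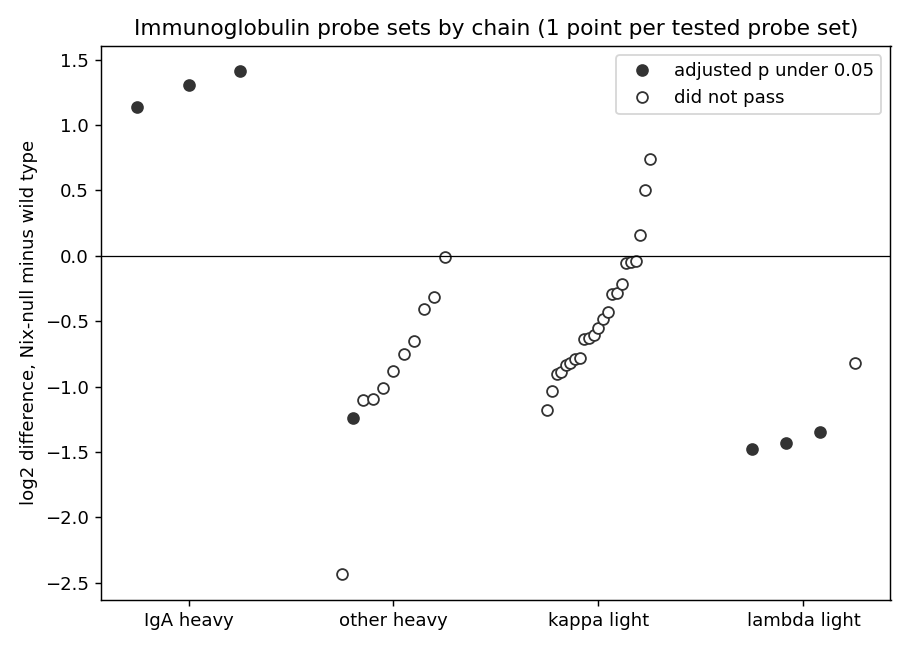
Difference in log2 intensity, Nix-null minus wild type, of each tested immunoglobulin probe set, grouped by chain, with filled points for probe sets past a limma adjusted p of 0.05. The 3 Igha points lie between 1.14 and 1.41, and the 38 others run from -2.44 to 0.74 with a median of -0.70.

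Prdm1 encodes Blimp-1, the repressor that drives B cells into the plasma cell state. It was near the detection filter, at 5.44, 4.30, 5.03 and 5.42 in Nix_KO 10, 2, 3 and 6, against 5.44, 6.07, 5.97 and 6.55 in WT 3, 4, 5 and 6. The groups met at WT 3, which was level with the highest Nix-null array, and Nix_KO 2 was the lowest of all. The difference was -0.96 (SE 0.30, limma adjusted p = 0.0393), and -0.78 when values under 5 were set to 5. Prdm1 lost its call without Nix_KO 2, Nix_KO 3, WT 4, WT 5 or WT 6 (limma adjusted p = 0.0749 to 0.109) and with no filter on dim probe sets (0.0808).

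Xbp1 encodes the transcription factor that is made active when Ern1 splices its transcript in the unfolded protein response. Its brightest probe set, 1437223_s_at, measured 12.17, 12.35, 11.76 and 12.23 in Nix_KO 10, 2, 3 and 6, against 12.73, 12.60, 12.89 and 12.99 in WT 3, 4, 5 and 6. Every Nix-null array was below every wild-type array. The intensity was 1.60-fold lower (difference -0.67, SE 0.17, limma adjusted p = 0.0174). The call was lost without WT 6 (limma adjusted p = 0.0588).

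The other Xbp1 probe sets did not pass, although their differences were also negative. The difference was -0.64 at 1420011_s_at (limma adjusted p = 0.0513), -0.66 at 1420886_a_at (0.114) and -0.31 at 1420012_at (0.343). Probe set 1420011_s_at passed without Nix_KO 2 (0.0392) or WT 3 (0.0448), and 1420886_a_at without Nix_KO 6 (0.0419). The differences between the changes of the Xbp1 probe sets had exact permutation p of 0.143 to 0.943 (6 pairs). With 4 against 4 arrays, no pair could pass after adjustment over the 14 pairs of probe sets tested unless at least 9 pairs reached the smallest p of 0.0286. The arrays measure total transcript, and splicing of Xbp1 was not analysed here.

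Creb3l2 encodes a membrane-bound factor of the ER stress family that supports the secretory pathway. Probe set 1452381_at measured 6.69, 6.10, 6.60 and 7.09 in Nix_KO 10, 2, 3 and 6, against 7.40, 7.55, 7.91 and 7.83 in WT 3, 4, 5 and 6. The groups did not overlap. The intensity was 2.07-fold lower (difference -1.05, SE 0.22, limma adjusted p = 0.00836). The dimmer probe set 1437396_at differed by -0.15 (limma adjusted p = 0.472), and the 2 probe sets differed in their change by 0.90 (exact permutation p = 0.0286, the smallest possible with 4 against 4, and 0.2 adjusted over 14 pairs). Creb3l2 kept its call at 1452381_at when any single array was left out.

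Other regulators of the switch from B cell to plasma cell were read from a list. Irf4, which acts with Prdm1 in plasma cells and is also present in activated B cells, measured 8.55, 7.21, 7.49 and 8.55 in Nix_KO 10, 2, 3 and 6, against 9.33, 9.59, 9.46 and 9.60 in WT 3, 4, 5 and 6 (difference -1.55, SE 0.31, limma adjusted p = 0.00652). The groups did not overlap. The B cell factors that oppose the plasma cell programme fell as well, Pax5 by 1.54 (limma adjusted p = 0.00371), Bcl6 by 1.37 (0.00923) and Bach2 by 1.25 (0.0338). Factors of both sides of the switch were lower in Nix-null spleens.

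Sdc1 encodes CD138, the surface proteoglycan used to sort plasma cells, and it is also made by epithelia. Its brightest probe set, 1437279_x_at, measured 7.90, 8.75, 7.24 and 7.94 in Nix_KO 10, 2, 3 and 6, against 7.89, 8.32, 8.76 and 9.05 in WT 3, 4, 5 and 6. The groups overlapped over most of their range. The difference was -0.55 (SE 0.34, 95% interval -1.31 to 0.21, limma adjusted p = 0.246). Probe set 1415943_at differed by -0.90 (SE 0.38, limma adjusted p = 0.103, and 0.0464 without WT 3) and 1415944_at by -0.07 (0.744), while 1448158_at was too dim to be tested, at 4.72 to 5.09 in Nix-null and 4.57 to 4.80 in wild-type arrays.

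Tnfrsf17 encodes BCMA, the receptor through which the survival factors APRIL and BAFF sustain plasma cells. It measured 5.15, 5.71, 4.17 and 5.77 in Nix_KO 10, 2, 3 and 6, against 4.81, 5.08, 5.56 and 5.51 in WT 3, 4, 5 and 6. The groups overlapped throughout, with Nix_KO 3 the lowest array. The difference was -0.04, with a 95% interval from -0.82 to 0.74 (limma adjusted p = 0.947). The related receptors Tnfrsf13b (TACI) and Tnfrsf13c (the BAFF receptor), which are carried by B cells, fell by 1.33 (SE 0.27, limma adjusted p = 0.00716) and by 1.09 (SE 0.26, 0.0144). Tnfrsf13c falls outside the rule for named genes and was chosen after its value was seen.

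Mzb1 encodes an ER cochaperone of marginal zone B cells and plasma cells that helps assemble IgM. It measured 11.69, 12.22, 10.68 and 11.67 in Nix_KO 10, 2, 3 and 6, against 12.07, 12.37, 12.58 and 12.66 in WT 3, 4, 5 and 6. Nix_KO 2 was above WT 3, and the other Nix-null arrays were below every wild-type array. The difference of -0.85 did not pass (SE 0.30, limma adjusted p = 0.0566, and 0.0251 without Nix_KO 2).

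Edem1 encodes a lectin-like protein that extracts misfolded glycoproteins from the folding cycle for degradation. Probe set 1451218_at measured 9.52, 8.56, 8.87 and 9.38 in Nix_KO 10, 2, 3 and 6, against 9.87, 10.02, 9.64 and 10.33 in WT 3, 4, 5 and 6. The groups did not overlap. The intensity was 1.85-fold lower (difference -0.88, SE 0.24, limma adjusted p = 0.0236), and the call was lost without Nix_KO 3 (0.0578), WT 4 (0.0644) or WT 6 (0.0723). Probe set 1424065_at measured 9.69, 10.03, 8.74 and 9.64 in Nix_KO 10, 2, 3 and 6, against 9.12, 9.50, 9.52 and 10.35 in WT 3, 4, 5 and 6 (difference -0.10, limma adjusted p = 0.84). The changes of the 2 Edem1 probe sets differed by 0.78 (exact permutation p = 0.0857, 0.24 adjusted over 14 pairs).

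Derl3 encodes a derlin of the channel that carries misfolded proteins out of the ER, a member of its family made in secretory cells. It measured 7.99, 9.02, 7.45 and 8.39 in Nix_KO 10, 2, 3 and 6, against 7.85, 8.07, 8.68 and 9.45 in WT 3, 4, 5 and 6. The groups overlapped over most of their range. The difference was -0.30 (SE 0.40, 95% interval -1.20 to 0.60, limma adjusted p = 0.599).

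**Figure D3:**
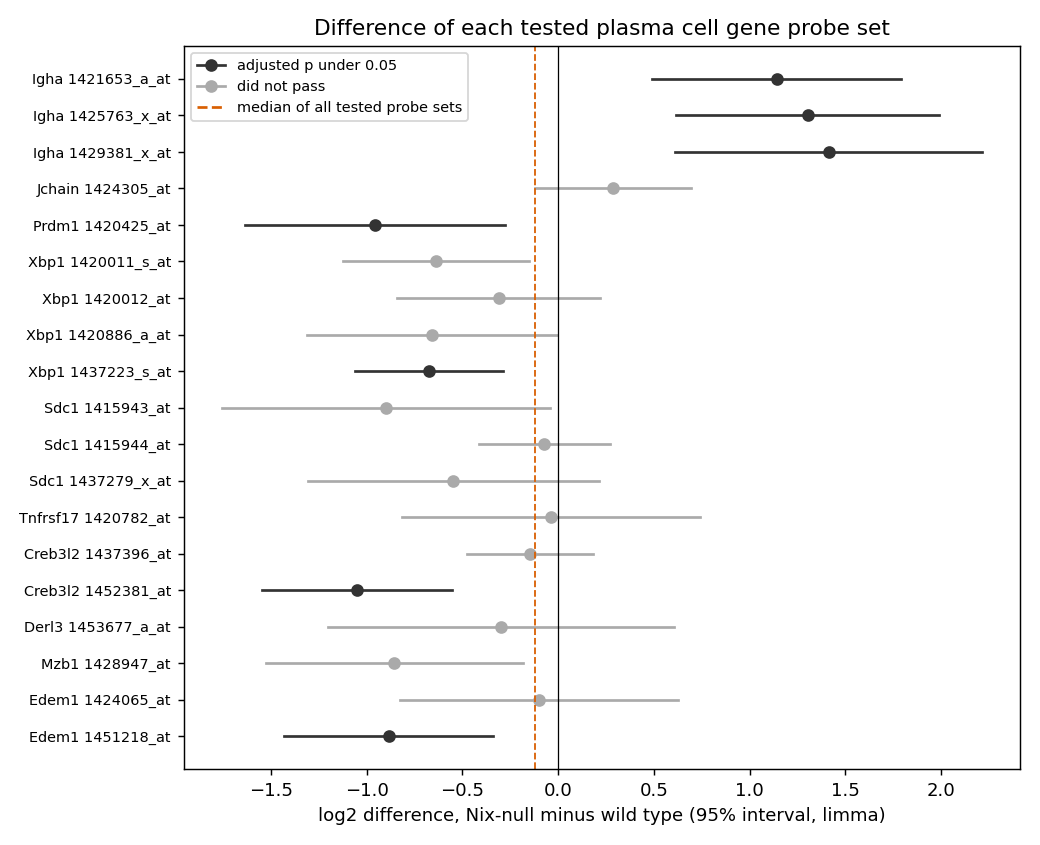
Difference in log2 intensity, Nix-null minus wild type, with its 95% interval from limma for each tested probe set of the plasma cell genes; the solid line is at 0, the dashed line at the median of all tested probe sets (-0.12), and dark points passed a limma adjusted p of 0.05. The 3 Igha intervals lie above 0, and the 4 called lower probe sets belong to Prdm1, Xbp1, Creb3l2 and Edem1.

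Of the 8 plasma cell genes with an upstream window, Derl3 was the one with an ER stress response element (ERSE), so its promoter is shown. The ERSE, CCAAT and CCACG with 9 bases of any kind between them, is bound by Atf6 and Xbp1 with NF-Y. It was searched on both strands in the 250 bases before each gene's start (RefSeq, GRCm38.p6), together with the ERSE-II, ATTGG and CCACG with 1 base between them, and the UPRE, TGACGTGG. No site shown overlaps another of these 3 motifs. In the Derl3 window, chr10:75893148-75893397 on the plus strand, the capitals mark an ERSE read on the opposite strand, beginning 156 bases before the start.
Derl3: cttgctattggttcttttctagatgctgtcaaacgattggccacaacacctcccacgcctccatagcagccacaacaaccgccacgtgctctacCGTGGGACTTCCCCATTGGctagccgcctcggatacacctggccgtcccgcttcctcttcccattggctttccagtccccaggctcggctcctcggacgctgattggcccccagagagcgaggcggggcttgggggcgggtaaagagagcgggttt

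The ERSE was present in 37 of 32851 windows (0.113%), the ERSE-II in 10 (0.0304%) and the UPRE in 185 (0.563%). Of the 8 plasma cell genes with a window, 1 held an ERSE and 0 held either other motif. The UPRE was in 3 of 24 windows of the further plasma cell genes (Pou2af1, Txndc5 and Txndc11) and 1 of 21 of the transport genes (Sec24d). Of 25 windows of unfolded protein response genes, 7 held an ERSE and 1 an ERSE-II. The sites of genes that fell and of 2 that did not pass, Hspa5 and Creld2, are set side by side, with the motif in capitals. They lie at chr19:6046512-6046570 (Syvn1, plus strand), chr12:17266471-17266529 (Pdia6, plus), chr14:118937807-118937865 (Dnajc3, plus), chr8:94386357-94386407 (Herpud1, plus, an ERSE-II), chr2:34772005-34772063 (Hspa5, plus), chr15:88819500-88819558 (Creld2, plus, motif on the opposite strand) and chr9:51213609-51213656 (Pou2af1, plus, a UPRE).
Syvn1: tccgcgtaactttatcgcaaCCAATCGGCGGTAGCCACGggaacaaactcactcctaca
Pdia6: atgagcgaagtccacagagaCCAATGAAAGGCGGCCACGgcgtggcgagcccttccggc
Dnajc3: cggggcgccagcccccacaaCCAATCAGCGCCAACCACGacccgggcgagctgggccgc
Herpud1: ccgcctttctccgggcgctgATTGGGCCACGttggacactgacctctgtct
Hspa5: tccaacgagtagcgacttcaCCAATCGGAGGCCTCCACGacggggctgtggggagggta
Creld2: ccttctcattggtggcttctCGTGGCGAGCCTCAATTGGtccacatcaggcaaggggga
Pou2af1: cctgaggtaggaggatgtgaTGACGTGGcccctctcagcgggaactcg

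Of the 7 unfolded protein response genes with an ERSE 3 fell, where 10 of 28 fell in the whole list, and the 1 with an ERSE-II fell. Syvn1, the ubiquitin ligase of ER disposal, fell by 0.70 (limma adjusted p = 0.0138), Pdia6, a disulfide isomerase, by 1.0 (0.0349), Dnajc3, a cochaperone, by 0.54 (0.0227) and Herpud1, an adaptor of the disposal complex, by 0.74 (0.0098). Hspa5, the main ER chaperone BiP, differed by -0.24 (limma adjusted p = 0.446), and Creld2, a secreted ER stress protein, by -0.64 (0.169). The remaining genes of the list with an ERSE, the chaperones Calr (-0.29), Canx (0.30) and Hsp90b1 (-0.15), did not pass either (limma adjusted p = 0.154, 0.142 and 0.586). Of the genes with a UPRE only Pou2af1, the one shown, was called. Txndc5 (-0.55), Txndc11 (-0.60) and Sec24d (-0.61) did not pass (limma adjusted p = 0.417, 0.0886 and 0.0815). Derl3 itself, with the site above, differed by -0.30. A motif match describes these letters only.

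In all, with Syvn1, Pdia6, Dnajc3 and Herpud1 among them, 10 of 28 tested genes of the unfolded protein response and ER quality control fell and 0 rose (2 higher and 13 lower at an unadjusted p under 0.05), against 21.3% lower and 13.1% higher of all genes. The median difference was -0.48, against -0.15 over all genes. The array means of the list were 9.64 to 9.89 in Nix-null and 10.08 to 10.36 in wild-type arrays, with Nix_KO 3, the array of strongest pancreatic signal, at 9.64. Atf6b, a relative of the ER stress sensor Atf6, fell by 1.21 (SE 0.21, limma adjusted p = 0.00409), Eif2ak3, the sensor kinase PERK, by 0.62 (0.0182) and Ern1, the sensor that splices Xbp1, by 0.63 (0.042). Atf6 differed by 0.07 (limma adjusted p = 0.748).

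The count for the ER quality control list depended on single arrays and on scaling. It was 3 without WT 4 or WT 6, 5 without WT 5, and 7 to 10 without any other single array. With arrays centred on their medians 1 gene of the list was higher and 4 were lower, with a median of -0.35. Without the 3 arrays with pancreatic signal 0 passed in limma, and 12 had an unadjusted p under 0.05.

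**Figure D4:**
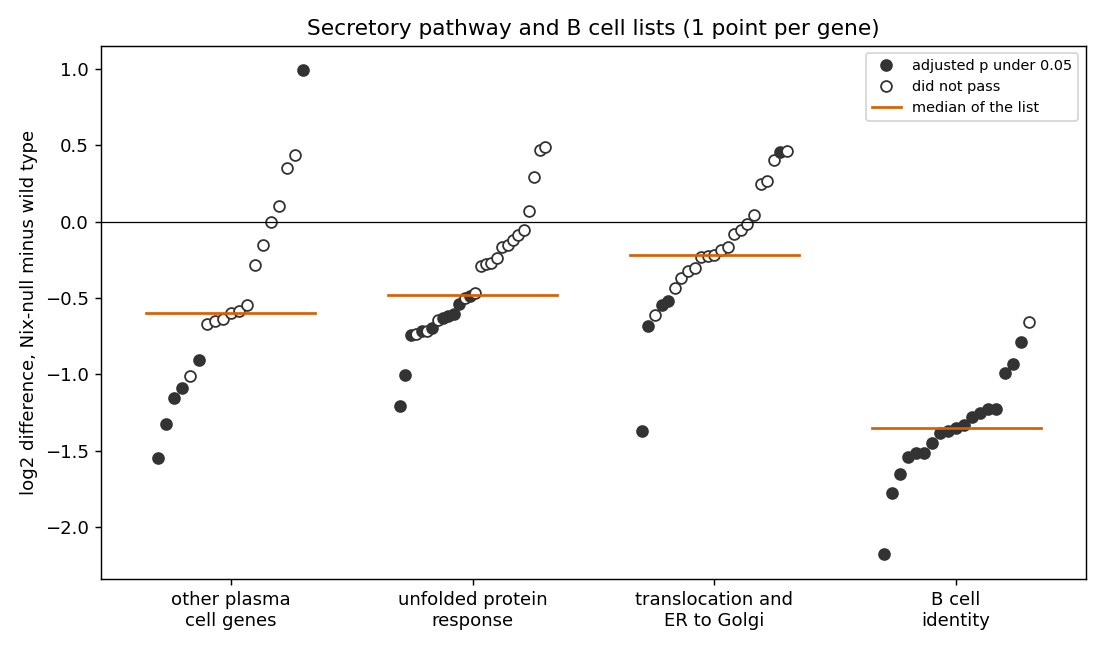
Differences in log2 intensity, Nix-null minus wild type, of the tested genes of each list, one point per gene, filled where the limma adjusted p was under 0.05, with a line at the list median. The B cell identity genes have a median of -1.35, the other plasma cell genes -0.60, the ER quality control genes -0.48 and the translocation and transport genes -0.22.

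Export of antibody needs translocation into the ER and transport to the Golgi. Of 23 tested genes of this route 1 rose and 4 fell, against 13.1% higher and 21.3% lower of all genes (median -0.22, against -0.15 over all genes). Sec31a, a coat protein of the vesicles that leave the ER, fell by 1.37 (SE 0.24, limma adjusted p = 0.00434), Sec61a1, the pore of the translocon, by 0.55 (0.0257) and Mcfd2, a cargo receptor subunit, by 0.52 (0.0274). Ssr1, a subunit of the translocon-associated complex, rose by 0.46 (limma adjusted p = 0.0399). The count of 5 fell to 1 without Nix_KO 3, WT 4 or WT 6, to 2 without Nix_KO 10 or WT 5 and to 3 without WT 3, and with centred arrays 2 genes were higher and 1 was lower.

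Of 19 tested further genes linked to plasma cells 1 rose and 5 fell (2 higher and 9 lower at an unadjusted p under 0.05), against 34.4% of all genes called, and the median difference was -0.60. Ell2, an elongation factor that promotes the secreted form of the immunoglobulin heavy chain and is made in other cells too, measured 12.31, 12.38, 12.63 and 12.19 in Nix_KO 10, 2, 3 and 6, against 11.52, 11.46, 11.01 and 11.54 in WT 3, 4, 5 and 6. All Nix-null arrays were above all wild-type arrays (difference 0.99, SE 0.17, limma adjusted p = 0.00431). Pou2af1, the B cell coactivator OCA-B, fell by 1.15 (limma adjusted p = 0.00898). Without the 3 arrays with pancreatic signal 0 of the 19 passed in limma, and 7 had an unadjusted p under 0.05.

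Each plasma cell gene was also read relative to the mean of the 19 tested B cell identity genes of its array. That mean was 9.57 to 10.51 in Nix-null and 11.12 to 11.42 in wild-type arrays, a difference of -1.34. On this scale a gene stood higher in Nix-null spleens unless it was lower by more than the B cell genes, which held for 97.7% of all 11027 genes, with a median relative difference of 1.19. A positive relative difference is thus no result about the plasma cell genes, and their place beside that median is given as a description. Every gene's difference shifts by the same amount on this scale, so that place repeats the order of the differences in log2 intensity. Each gene was read at its brightest probe set.

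Relative to the B cell level, Igha stood at 4.40 ± 0.47 in Nix-null and 1.92 ± 0.35 in wild-type spleens, a difference of 2.48 (SD, n = 4 each). Jchain stood at 3.44 ± 0.60 in Nix-null and 1.82 ± 0.25 in wild-type spleens, a difference of 1.62. With Tnfrsf17 (1.30) and Edem1 at 1424065_at (1.24) these were the 4 genes above the median of all genes. The other 6 lay below it, Derl3 at 1.04, Sdc1 at 0.79, Xbp1 at 0.66, Mzb1 at 0.48, Prdm1 at 0.38 and Creb3l2 at 0.29.

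The groups did not overlap for 4 of the 10 genes (Igha, Jchain, Xbp1 and Tnfrsf17), where 78.5% of all genes had every Nix-null array above every wild-type array on this scale and 0.127% every Nix-null array below. For these 4 the exact two-sided permutation p was 0.0286, the smallest that 4 against 4 arrays can give, and 0.0714 after adjustment over the 10 genes. No gene could pass the adjustment unless at least 6 reached that p.

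**Figure D5:**
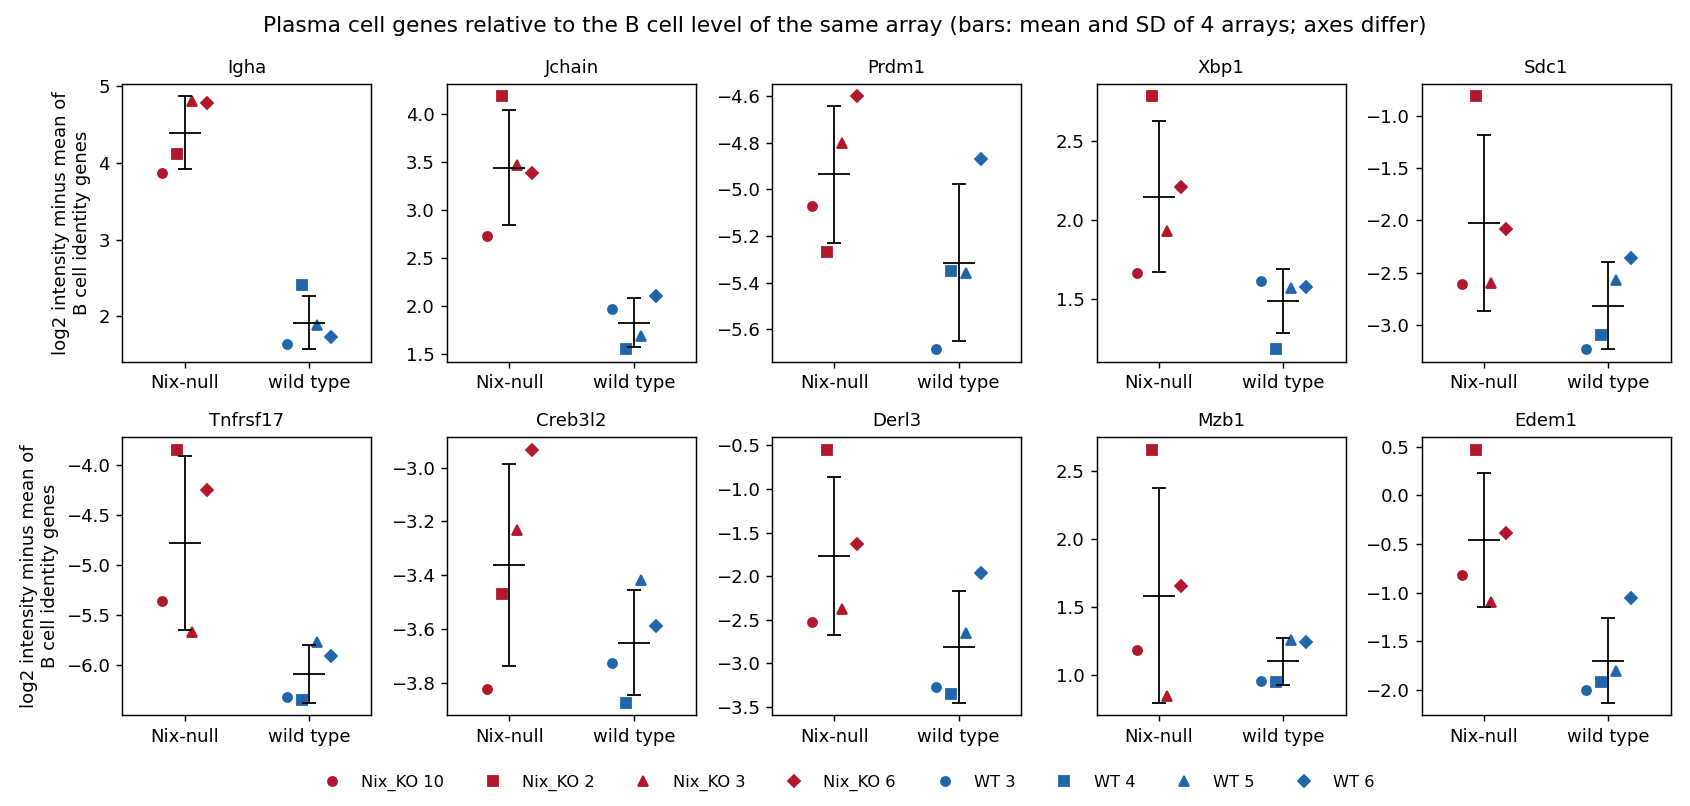
Log2 intensity of each plasma cell gene minus the mean of the 19 B cell identity genes of the same array, one panel per gene, with Nix-null arrays left of wild-type arrays and bars at the mean and SD of 4 arrays. Igha, Jchain, Xbp1 and Tnfrsf17 have every Nix-null point above every wild-type point, as had 78.5% of all genes on this scale.

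Genes whose pattern over the 8 arrays was most like that of 3 plasma cell genes were listed as a description, among 11017 other genes. For Igha they were Arel1 (Pearson r = 0.952), Phlpp2 (0.948) and Nfatc2ip (0.941). For Jchain they were Jpx (0.939), Dbi (0.92) and Mybl1 (0.917), and for Xbp1 they were Scamp3 (0.985), Gstm2 (0.984) and S100a6 (0.978). The 8 arrays share the genotype split, which any called gene also carries.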

How the data were processed

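Total RNA of 8 spleens was hybridised without pooling, 1 spleen per array, and the samples are separate animals per the labels. The deposited intensity values, a single one for each probe set on an array, come from GCRMA, per the submitters' processing notes, with its version not given in the sources used here. They were on a linear scale and were log2-transformed before any other step. GCRMA draws dim probe sets towards a common low level, which affects their fold changes. The precision is limited by the 4 arrays per group.

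Of 45101 probe sets 64 controls were left out. Testing required 4 or more of the 8 arrays to reach log2 5, which kept 22347 of 45037. Names came from the platform annotation, which gave 1 gene symbol to 34945 probe sets, several to 932 and none to 9160. In lists each gene was read at the brightest on average of its probe sets with 1 symbol (11027 genes). Genotypes were compared with limma 3.58.1 (R 4.3.3, lmFit and eBayes, two-sided). The p-values were adjusted by Benjamini-Hochberg over all tested probe sets, with a threshold of 0.05, and intervals are limma's 95% intervals. Single differences were tested by exact permutation over arrays. Upstream windows of 250 bases came from RefSeq (GRCm38.p6). Plots used matplotlib 3.10.9 under Python 3.11.15.

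The genes, lists and tests were chosen with earlier results of these data known. The rule for named genes took all probe sets of the 10 genes, then up to 4 called genes per list by smallest adjusted p. It also took Irf4, Pax5, Bach2, Bcl6, Hspa5, Atf6, Ern1, Ighm and Bnip3l whether or not they passed, and the 3 genes most like Igha, Jchain and Xbp1. Not all genes so taken from the B cell, erythroid, T cell and macrophage lists are named here. The genes of the motif comparison and Tnfrsf13c were added after their values were seen.

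The fit was checked on simulated arrays of this comparison (22347 probe sets). At 1.5-fold it recovered 7.46% of 67 altered probe sets, at 2-fold 40.3% of 67 and at 4-fold 83.3% of 66. Of its calls 6.45% were false, and it made 0 calls when nothing was altered. The simulation altered few probe sets and drew each one independently, whereas 30.0% of the tested probe sets were called in the data. Its shares of recovered and false calls thus need not hold for these arrays. Alternatives were no filter, a filter at log2 7, quantile normalization, median centring, array weights, a replicate block, and leaving out each array or the 3 with pancreatic signal.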

Additional observations from a re-analysis of the deposited data

Results flagged for a closer look

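In 9 of 154 groups of 4 arrays 1 array stood far from the other 3 by Dixon's gap criterion, which chance alone meets in about 1 of 20 groups. Among the plasma cell genes, the untested Sdc1 probe set 1448158_at was 5.09 in Nix_KO 2, against 4.72 to 4.74 in the other Nix-null arrays. Xbp1 relative to the B cell level was 1.18 in WT 4, against 1.57 to 1.61 in the other wild-type arrays. The mean of the ER quality control list was 9.64 in Nix_KO 3, against 9.88 to 9.89 in the other Nix-null arrays. The mean of the pancreatic acinar markers was 12.63 in the same array, against 5.2 to 6.0.

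The remaining 5 groups were wild-type. Ell2 was 11.01 in WT 5, against 11.46 to 11.54 in the others. In WT 3, Cd79a, a subunit of the B cell receptor, was 13.55 (others 13.77 to 13.79), Thy1, a T cell surface protein, was 10.48 (others 10.96 to 11.02) and C1qa, a complement chain of macrophages, was 11.76 (others 11.91 to 11.93). Slc4a1, the red cell anion exchanger, was 13.86 in WT 6, against 14.59 to 14.67 in the others.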

How the results depend on the processing

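Of the single tested probe sets of the plasma cell genes, 248 results under the alternatives kept their side of the threshold and their direction or stayed uncalled, 15 gained a call, 17 lost one, and 0 called differences changed sign. The 3 Igha probe sets kept their calls under every alternative except the removal of the 3 arrays with pancreatic signal, an alternative chosen after the data were seen. That removal leaves 3 Nix-null against 2 wild-type arrays. It gave 0 calls among the plasma cell probe sets (0 higher, 0 lower, against 7, 3 and 4) and 690 over all probe sets, against 6711. It gave 0 calls for the other plasma cell genes, the immunoglobulin chains, ER quality control, transport, T cell and macrophage lists, 1 for B cell identity (18 at an unadjusted limma p under 0.05) and 3 for erythroid markers (12 unadjusted). Unadjusted counts for the lists at 0 were 7, 2, 12, 2, 7 and 2, in the order named. The pancreatic acinar markers also had 0 calls, with 5 at an unadjusted limma p under 0.05.

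Array weights gave 11 calls among the plasma cell probe sets, 8 of them lower, and 8 in the transport list, 5 in the T cell list and 7 in the macrophage list. Median centring gave 5 in the ER quality control list and 3 in the transport list. With no filter the immunoglobulin chains and the macrophage markers each had 1. Leaving out 1 array at a time gave 4 to 9 calls among the plasma cell probe sets, 1 to 6 of them lower, and 3996 to 6993 over all probe sets. For the lists it gave 1 to 3 (immunoglobulin chains), 3 to 10 (ER quality control), 1 to 6 (transport), 3 to 11 (T cell) and 1 to 7 (macrophage). Mzb1 passed with the filter at log2 7 (limma adjusted p = 0.0454), quantile normalization (0.0398) and array weights (0.0146). Xbp1 at 1420011_s_at passed under the same settings (0.042, 0.0427 and 0.018), and at 1420886_a_at with array weights (0.0328). Sdc1 at 1415943_at also passed with array weights (limma adjusted p = 0.0308).

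Arrays of both genotypes carry the replicate numbers 3 and 6. The deviations of these 2 pairs correlated at 0.252 and 0.147, within the range of pairs with different numbers (-0.493 to 0.384). With 2 pairs and no label that ties them the arrays share only a number. With the replicate number as a random block 9 plasma cell probe sets passed, 3 higher and 6 lower, of 7131 calls in all, and Mzb1 (limma adjusted p = 0.0414) and Xbp1 at 1420011_s_at (0.0374) were the additional ones. Dim probe sets such as those of Prdm1 and Tnfrsf17 limit what 4 arrays per group can show.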
